A study of Mus musculus with 18 samples.

Results

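Expression of 41 genes of the cell cycle and of DNA replication was followed in mouse CD4 T cells sequenced as 18 libraries. The 41 genes were a fixed set of names, chosen with earlier results of these data known. They were matched by symbol to the Ensembl identifiers of the deposited table. They make up 41 of its 55536 identifiers, and all 41 were among the 15204 genes that passed the filter on low counts. All 41 also passed that filter with the peripheral libraries alone and with the thymic libraries alone. By role, 18 act in the G1/S transition, at replication origins and forks or in nucleotide supply, and are called replication members here. The other 23 act in G2 and mitosis and are called mitotic members.

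All mice were on the C57BL/6 background, and every T cell donor bore the OT-II transgene, which encodes a T cell receptor with a Va2 alpha chain. PO denotes peripheral naive cells of OTII mice, the reference genotype. PWO cells came from W131AOTII mice, in which the kinase ZAP-70 bears the W131A substitution, and PCO cells came from Cbl-b-/- OTII mice, which lack the ubiquitin ligase Cbl-b. PCWO cells combined both changes (Cbl-b-/-W131AOTII). TO denotes CD4 single-positive thymocytes of OTII mice, and their counterparts from W131AOTII mice are called thymic W131A cells. Axis labels of the plots spell a group by its letters, P for periphery or T for thymus, C for Cbl-b-/-, W for W131A and O for OTII. Each group had 3 libraries. The peripheral cells came from spleens and lymph nodes and were gated for low CD44 and for CD62L, and every sample was gated as CD25-negative and Va2-positive. The OT-II transgene, the strain and the gates on CD25 and Va2 were therefore common to all groups. Tissue and the naive gate changed together between periphery and thymus and cannot be told apart. Cells came from 3 OTII mice and 3 Cbl-b-/- mice, from 12 W131AOTII mice with 4 in a group, and from 6 mice with both changes, 2 in a group, which may thus have been pooled. Mice are not tied to libraries in the labels, so each p-value reflects library-to-library spread, which may in part be technical. Peripheral and thymic libraries of the same genotype may share mice, and the comparisons of tissue treated them as unpaired. Ages were not stated. The study addressed which pathways Cbl-b governs in a genetically encoded form of T cell anergy, the unresponsive state of the W131AOTII cells.

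A dividing cell passes through G1, S, G2 and mitosis, and cyclins with their kinases drive each step. E2F factors switch on the genes of the G1/S transition, among them the subunits of the MCM helicase, which is loaded on origins in G1 and unwinds DNA in S phase. Genes for the spindle, the kinetochore and the mitotic kinases are switched on later, in G2, by FOXM1, B-MYB and the MuvB complex, and are kept low in resting cells by the DREAM complex. Naive CD4 T cells of the periphery are mostly resting, whereas the thymus holds dividing precursors.

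Total counts ran from 19708218 to 36218772 per library. Cd3e, Cd4, Lck, Trac and the other T cell markers were all detected in every library, with a summed level of 14824 to 27147 CPM (counts-per-million of the TMM-adjusted library size). Cblb lay at 51.0 to 90.5 CPM in PCO and 82.8 to 111 CPM in PCWO against 122 to 142 CPM in PO and 146 to 177 CPM in PWO. No PCO or PCWO library reached the PO range, yet transcripts of the deleted gene were still counted, and the deleted part is not given in the labels. The thymic cells, with Cblb intact, had 78.6 to 97.2 CPM in TO and 113 to 141 CPM in thymic W131A cells, and TO overlapped PCO, so the level checks the labels within the periphery alone. The substitution in ZAP-70 cannot be checked from counts per gene. PWO replicate 2, PCO replicate 2 and TO replicate 3 were known from earlier results to stand apart, and the count of members called in each comparison was repeated without them. Over all genes tested here, however, TO replicates 1 and 2 were least alike (Spearman correlation 0.982), and each was closer to replicate 3 (0.984 and 0.987). In bulk RNA, fewer dividing cells and less RNA per cell cannot be told apart.

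The promoters are shown first because their sequence was not measured in these libraries. Roles that define the replication and mitotic members also go with E2F and MuvB control, so the motif shares are not independent of that grouping. RefSeq sequence (GRCm38.p6) from 250 bases before to 50 after the start was matched for 33 of the 41 members, in 36 windows, beside 32851 windows of all genes. On both strands, the windows were searched for the E2F sites TTTGGCGC, TTTCCCGC, TTTGCCGC and TTTCGCGC, for the cell cycle homology region (CHR), written TTTGAA or TTTAAA, and for the CCAAT box. TTTAAA reads the same on both strands and was counted once, and the E2F sites can overlap each other across strands. In the sequences that follow, capitals mark these motifs on either strand. Each runs 5′ to 3′ along the gene's own strand, from 160 bases before the RefSeq start to 10 bases after it. Ccnb2, Ccnb1, Cdk1, Top2a and Kif11 are mitotic members on which the results turn, and Mcm5 and Mcm6 are helicase subunits.
Ccnb2 (chr9:70421545-70421714, minus strand): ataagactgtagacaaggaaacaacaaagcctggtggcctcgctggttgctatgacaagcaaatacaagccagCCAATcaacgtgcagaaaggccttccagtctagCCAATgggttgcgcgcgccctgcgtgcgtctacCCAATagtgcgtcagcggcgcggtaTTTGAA
Ccnb1 (chr13:100786477-100786646, minus strand): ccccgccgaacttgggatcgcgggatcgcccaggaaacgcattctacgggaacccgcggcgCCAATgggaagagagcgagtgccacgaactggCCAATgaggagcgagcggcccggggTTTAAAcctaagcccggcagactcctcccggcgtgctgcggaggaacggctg
Cdk1 (chr10:69352903-69353072, minus strand): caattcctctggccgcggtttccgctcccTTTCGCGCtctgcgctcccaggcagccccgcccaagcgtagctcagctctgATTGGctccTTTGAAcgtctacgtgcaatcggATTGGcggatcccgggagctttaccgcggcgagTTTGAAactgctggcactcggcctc
Top2a (chr11:99024180-99024349, minus strand): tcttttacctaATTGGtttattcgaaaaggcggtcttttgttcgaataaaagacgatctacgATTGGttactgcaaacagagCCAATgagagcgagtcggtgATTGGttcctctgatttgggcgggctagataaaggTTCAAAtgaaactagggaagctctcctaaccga
Kif11 (chr19:37376222-37376391, plus strand): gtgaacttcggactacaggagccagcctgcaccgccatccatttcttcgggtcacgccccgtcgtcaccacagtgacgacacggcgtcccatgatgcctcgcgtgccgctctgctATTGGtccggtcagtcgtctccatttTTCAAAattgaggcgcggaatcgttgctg
Mcm5 (chr8:75109349-75109518, plus strand): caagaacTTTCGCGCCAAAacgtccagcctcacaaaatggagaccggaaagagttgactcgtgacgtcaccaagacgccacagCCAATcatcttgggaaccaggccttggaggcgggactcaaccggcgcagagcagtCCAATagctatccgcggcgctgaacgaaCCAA
Mcm6 (chr1:128359696-128359865, minus strand): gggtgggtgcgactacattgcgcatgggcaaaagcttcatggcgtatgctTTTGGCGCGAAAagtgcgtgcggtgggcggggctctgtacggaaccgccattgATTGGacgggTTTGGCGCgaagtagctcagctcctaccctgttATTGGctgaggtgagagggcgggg
The capitals CCAA at the end of the Mcm5 stretch are a CCAAT box that runs past it.

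An E2F site was present in 8 of 18 replication windows (44.4%) and in 1 of 18 mitotic windows (5.56%), compared with 2.26% of all windows. The mitotic window was that of Cdk1. A CHR was present in 16 of 18 mitotic windows (88.9%) and 7 of 18 replication windows (38.9%), compared with 27.6% of all windows. A CCAAT box was found in 16 of 18 mitotic windows (88.9%), 12 of 18 replication windows (66.7%) and 37.4% of all windows. Ccnb2 held 3 CCAAT boxes whose first bases were 33 and again 33 bases apart, and neighbouring boxes were 32 bases apart in Ccnb1, Cdk1 and Aurka. Other spacings on the same strand ran from 28 bases in Mcm5 to 128 bases, also in Cdk1, with 45 in Cdc20 and 61 in Cenpf. In Mcm5 and Mcm6, 2 overlapping E2F sites on opposite strands form the longest run of capitals. These are matches of letters in a window. They are not sites of measured binding.

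**Figure D1:**
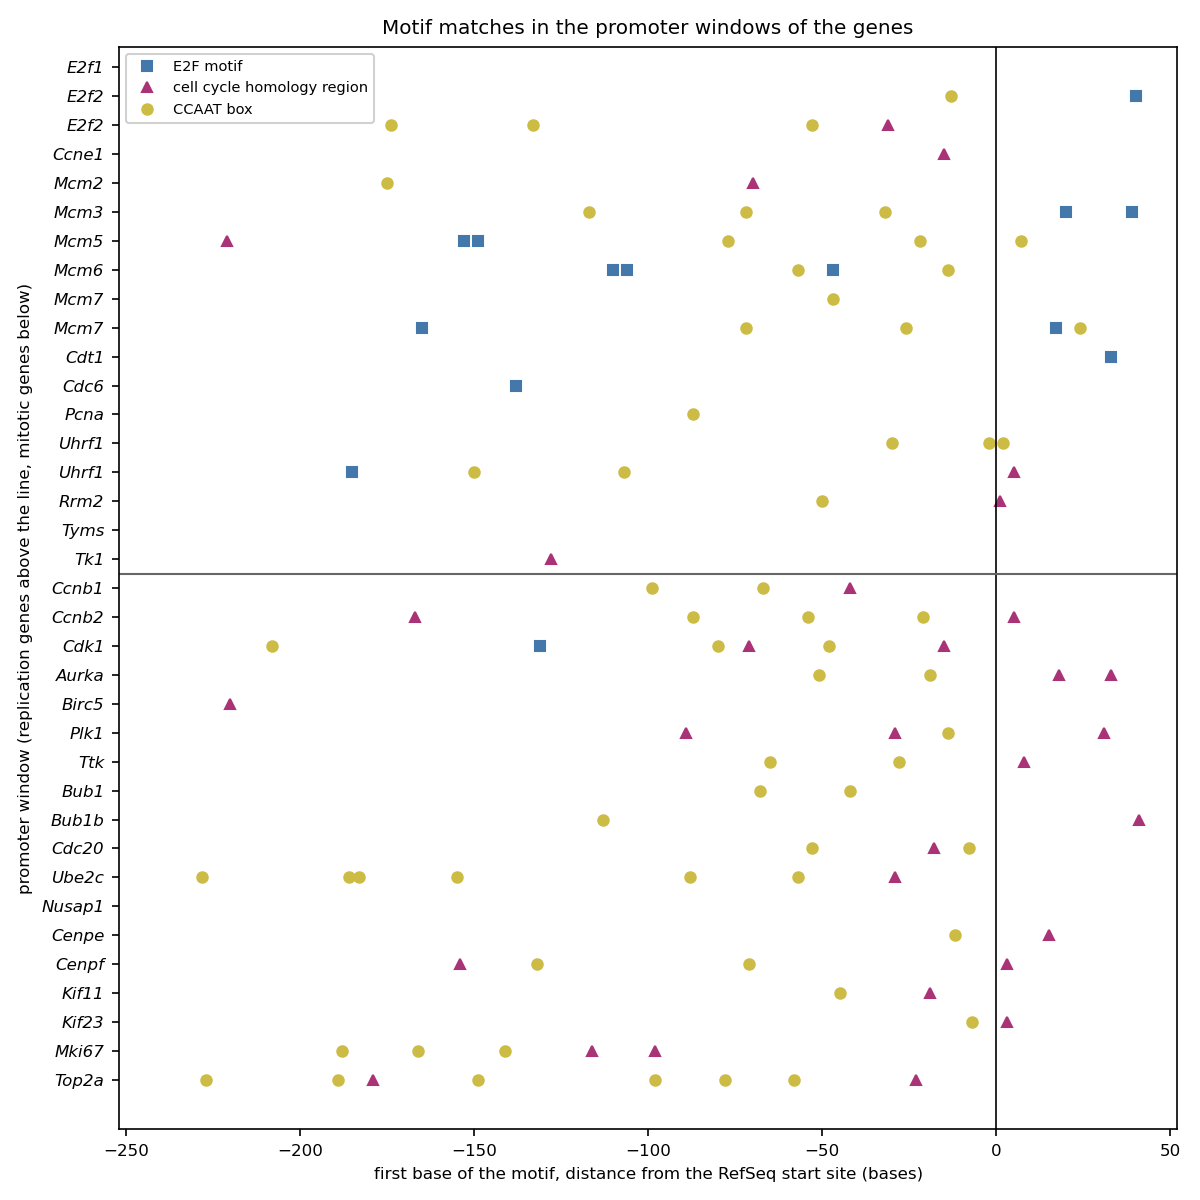
Positions of E2F, CHR and CCAAT motifs (colours and symbols, both strands) on the x axis as bases from the RefSeq start site, with 1 line on the y axis for each promoter window of the members. E2F sites sit in 8 replication windows and 1 mitotic window, while CHR motifs sit in 16 of the 18 mitotic windows.

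Levels of the 41 genes set thymus and periphery apart. Summed over the 23 mitotic members, replicates 1 to 3 held 52.6, 49.9 and 49.5 CPM in PO, 65.3, 119 and 70.4 CPM in PWO, 86.4, 99.7 and 95.2 CPM in PCO and 75.0, 74.6 and 63.1 CPM in PCWO. The same sum was 526, 691 and 308 CPM in TO and 1164, 342 and 777 CPM in thymic W131A cells. Every thymic library was above every peripheral library, and all 3 PO libraries were below the other 9 peripheral libraries. The replication members summed to 1103 ± 65.5 CPM in PO, 1239 ± 89.2 CPM in PWO, 980.3 ± 18.3 CPM in PCO, 867 ± 23.0 CPM in PCWO, 1411 ± 378 CPM in TO and 2080.2 ± 856 CPM in thymic W131A cells (mean ± SD, n = 3). Their peripheral order was different, with PCWO lowest and PWO highest, and the lower thymic libraries lay within the range of PWO. Mcm2 to Mcm7 supplied most of this sum, 950.2 ± 53.8 CPM in PO and 1084 ± 289 CPM in TO.

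**Figure D2:**
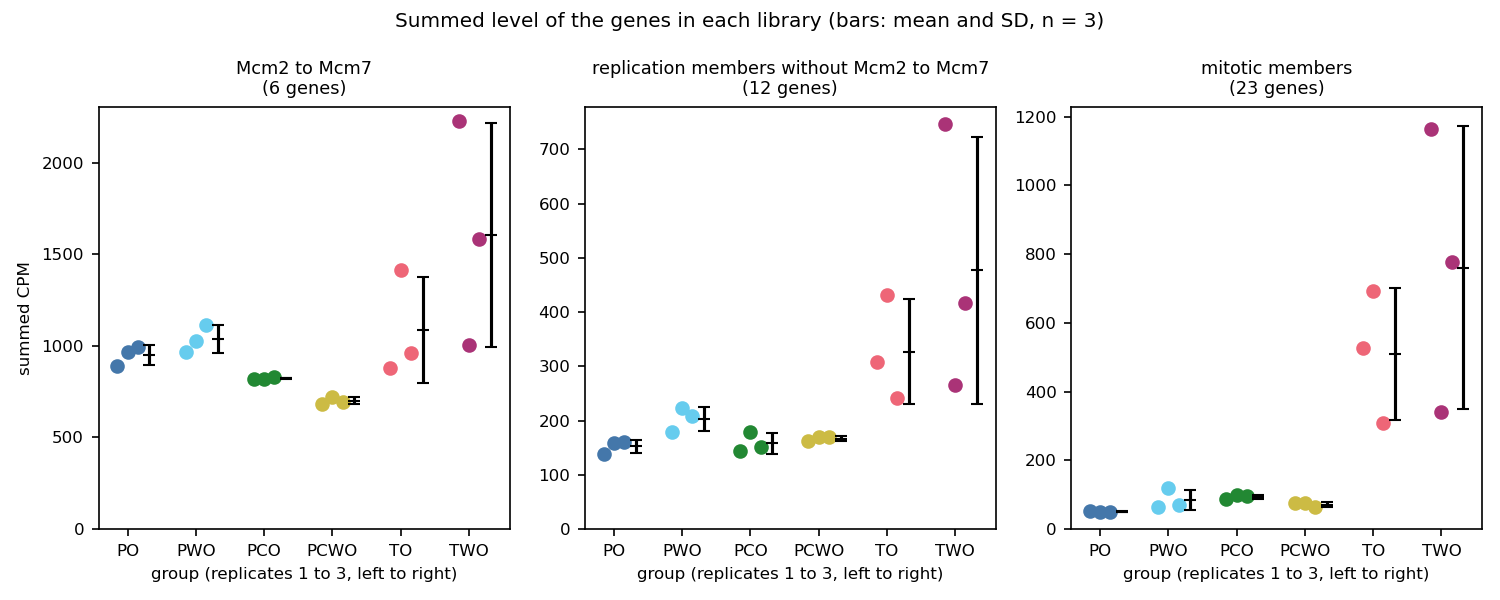
Summed CPM (y axis) of Mcm2 to Mcm7, the other replication members and the mitotic members, by group on the x axis. Points are libraries, shown with the group mean and SD. The mitotic sum is 49.5 to 119 CPM in the 12 peripheral libraries and 308 to 1164 CPM in the 6 thymic libraries. Mcm2 to Mcm7 span 683 to 1116 CPM and 877 to 2226 CPM in the same libraries. The other replication members span 139 to 222 CPM and 241 to 748 CPM. The sum over all replication members, which is not drawn, spans 845 to 1324 CPM and 1185 to 2973 CPM.

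Levels can be compared between genes only per length, as RPKM (CPM divided by annotated exon length in kilobases). On that scale the resting cells of PO were rich in helicase transcripts. Mcm4 stood first in PO at 55.9 ± 3.15 RPKM, followed by Mcm6 at 39.9 ± 2.60, Mcm3 at 36.2 ± 4.33 and Mcm2 at 32.7 ± 2.39 RPKM (mean ± SD, n = 3). Mcm6 and Mcm3 differ by less than the SD of Mcm3, as do Mcm3 and Mcm2, so the order of these neighbours is not resolved. Mcm5, Mcm7, the loading factor Cdt1 and the sliding clamp Pcna came next. The most abundant mitotic member of PO was Cdc20, the activator of the anaphase-promoting complex, at 3.76 ± 0.688 RPKM and rank 10. In TO, Mcm6 at 49.7 ± 13.2 RPKM and Mcm4 at 48.1 ± 5.94 RPKM led, with Rrm2, a ribonucleotide reductase subunit, at 19.4 ± 7.40 RPKM and Ccnb2, a mitotic cyclin, at 16.3 ± 7.11 RPKM and rank 10.

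**Figure D3:**
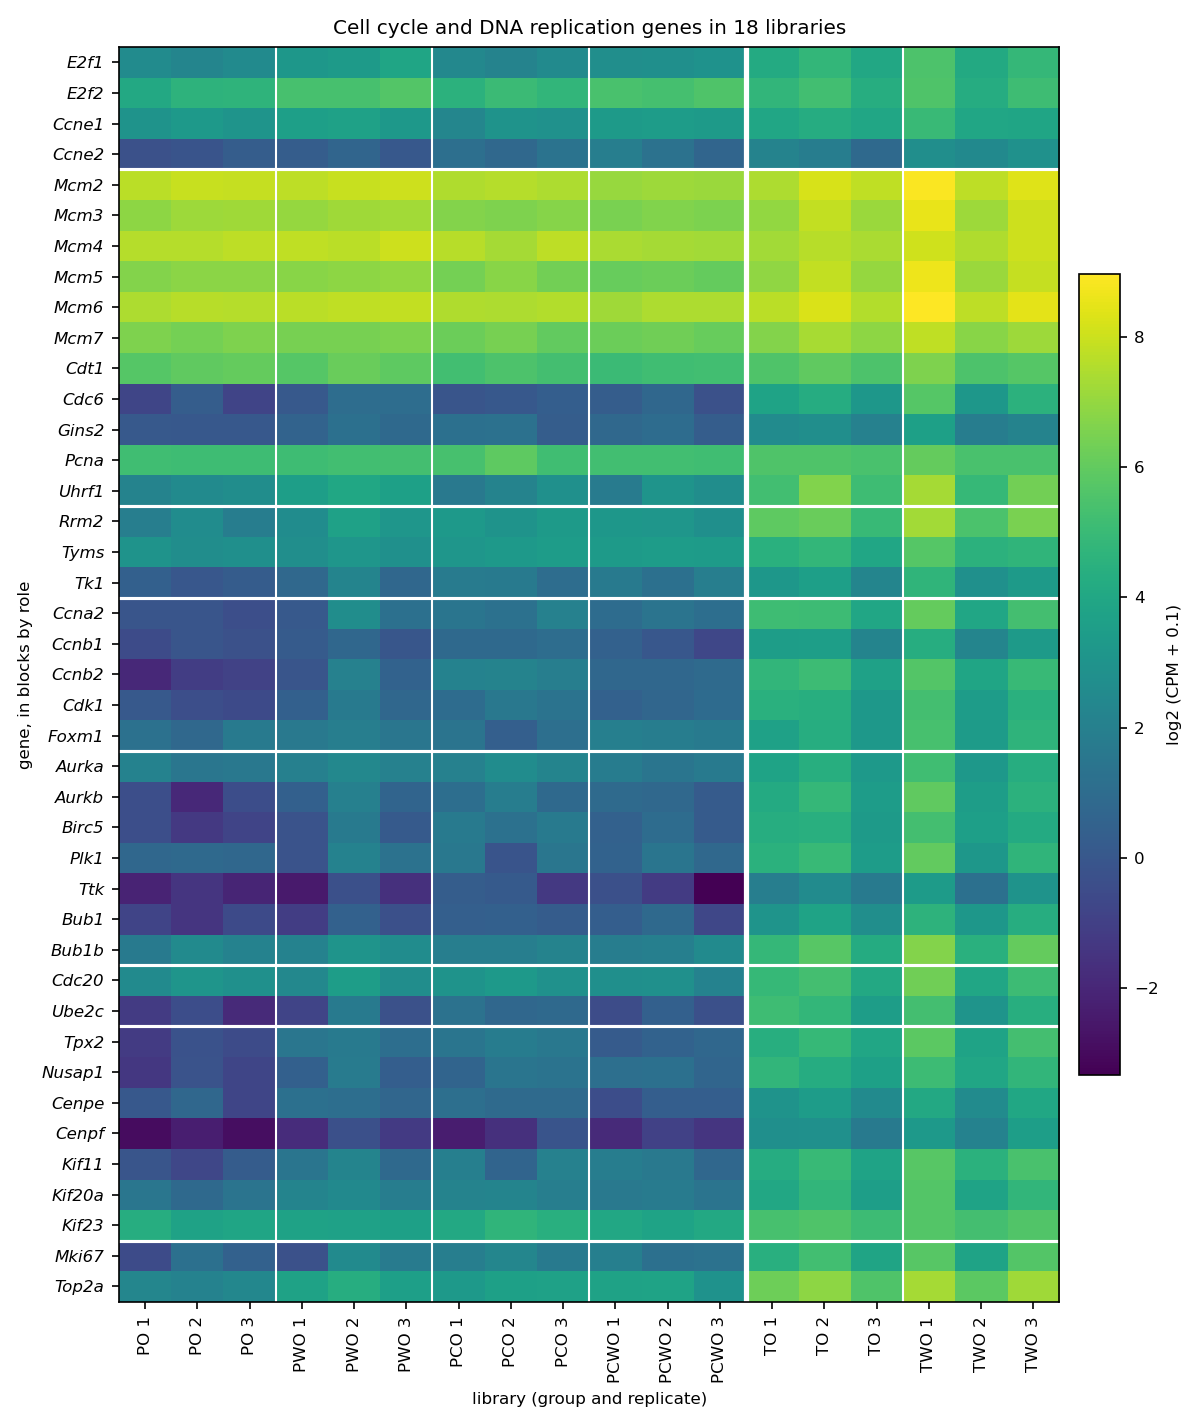
Heat map of log2 (CPM + 0.1) of the 41 genes (y axis, in blocks by role) in the 18 libraries (x axis). The 6 thymic libraries at the right are brighter for the lower blocks of mitotic genes, Mcm2 to Mcm7 are bright in all libraries, and thymic W131A replicate 1 is the highest thymic library in 39 of 41 genes.

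Peripheral and thymic OTII cells (PO against TO) show how these genes differ between resting naive cells and the last stage in the thymus. All 23 mitotic members were lower in the periphery, together with 9 of 18 replication members. That is 32 of 41 genes (edgeR's quasi-likelihood test, Benjamini-Hochberg adjusted over all genes, threshold 0.05), while 10.6% of all genes tested were called lower and 18.3% in either direction. None of the 41 was called higher, as were 7.75% of all genes. The median log2 fold change was -4.44 for mitotic members, -0.76 for replication members and -0.01 for all genes. In 35 of 41 genes the 3 PO libraries lay below the 3 TO libraries, compared with 20.7% of all genes tested, and in none above (18.7%). In W131AOTII cells (PWO against thymic W131A cells), 36 of 41 were lower and none higher, with 11.2% of all genes lower, 8.07% higher and 19.2% called in all. Those were the 23 mitotic members and 13 replication members. The libraries of 35 genes lay wholly below and of none wholly above, as did those of 17.7% and 15.4% of all genes. In 32 of 41 genes all 12 peripheral libraries lay below all 6 thymic libraries, as did 5.54% of all genes tested. With any 1 library left out, the counts were 31 to 33 in PO against TO and 33 to 38 in PWO against thymic W131A cells. Over all genes, those fits called 1926 to 2382 and 2189 to 2910 genes.

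Among G1/S regulators, E2f1, an activator E2F, was measured at 5.94, 4.72 and 5.81 CPM in PO and 17.8, 27.8 and 16.2 CPM in TO. The groups do not overlap, and E2f1 was lower in PO with a log2 fold change of -1.91 ± 0.30 (± SE, edgeR adjusted p = 1.14e-04). E2f2, a related activator and the gene of this role with the highest mean CPM, was not called. It stood at 16.8, 24.8 and 25.3 CPM in PO and 26.6, 38.2 and 20.1 CPM in TO, which overlap, with a log2 fold change of -0.34 ± 0.26 (edgeR adjusted p = 0.418). Ccne1 and Ccne2 encode the E-type cyclins that partner with CDK2 at the start of S phase. Ccne1 fell by 0.96 and Ccne2 by 1.85 on the log2 scale in PO against TO. Ccne2 overlaps Ints8 on the opposite strand over 609 bases, and without a stated strand setting reads there cannot be told apart.

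At origins and forks the members split. The helicase subunit Mcm2 (Ensembl ENSMUSG00000002870, chromosome 6, 88883474 to 88898780, minus strand, GRCm38), the member with the highest mean CPM, had 209, 240.1 and 234 CPM in PO and 172, 301 and 219 CPM in TO. These overlap, and the log2 fold change was -0.02 ± 0.21 (edgeR adjusted p = 0.967). None of Mcm2 to Mcm7, Cdt1 or Pcna passed the threshold in PO against TO, with log2 fold changes between -0.55 (Mcm5) and 0.23 (Cdt1). Cdc6, which loads the same helicase with Cdt1, behaved otherwise, with 0.501, 1.13 and 0.466 CPM in PO and 13.9, 19.5 and 8.83 CPM in TO. Cdc6 was lower in PO by 20.1-fold in mean CPM, a log2 fold change of -4.32 ± 0.56 (edgeR adjusted p = 1.58e-05). Uhrf1, which brings DNA methylation onto newly made strands, fell by 3.37, and Gins2, a subunit of the active helicase, fell by 2.54 on the log2 scale. Gins2 overlaps Gse1 on the opposite strand over 2758 bases, so part of its counts cannot be assigned. In W131AOTII cells Mcm3, Mcm5, Mcm6 and Mcm7 did pass the threshold, with log2 fold changes of -0.85, -1.13, -0.70 and -0.82 in PWO against thymic W131A cells. Mcm7 overlaps Ap4m1 and Cops6 on the other strand over 321 and 64 bases. Whether these effects differ between the genotypes is the interaction given further on, in which no member passed.

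The 3 nucleotide supply members were all lower in PO. Rrm2 was measured at 3.67, 6.26 and 3.55 CPM in PO and 60.1, 70.3 and 30.8 CPM in TO, and its log2 fold change was -3.58 ± 0.40 (edgeR adjusted p = 3.32e-06). Tyms, the thymidylate synthase, fell by 1.63, and Tk1, the thymidine kinase of S phase, by 2.97. Tk1 overlaps Afmid on the opposite strand over 83 bases.

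Of the G2/M cyclins, Ccnb2 (Ensembl ENSMUSG00000032218, chromosome 9, 70407692 to 70421547, minus strand) encodes cyclin B2, a partner of CDK1 in mitosis. It was close to absent in PO, at 0.167, 0.376 and 0.430 CPM, from 28 counts over the 3 libraries (exact Poisson 95% interval 18.6 to 40.5, counting error only). In TO it reached 27.3, 34.4 and 13.0 CPM. Its log2 fold change of -6.25 ± 0.61 (edgeR adjusted p = 5.97e-07) was the largest but one in size among the 41, after the -6.52 ± 0.75 of Cenpf, a kinetochore protein with 5 counts in PO. Ccna2, cyclin A2 of S phase and G2, stood at 0.834, 0.855 and 0.681 CPM in PO and 35.0, 34.5 and 15.3 CPM in TO. Ccna2 fell by 5.15 (SE 0.62), and it overlaps Exosc9 on the opposite strand over 510 bases. Cdk1, the kinase of mitotic entry, fell by 4.54 (SE 0.48), Ccnb1 by 3.67 (SE 0.49) and Foxm1, the transcription factor of G2, by 2.58 (SE 0.40).

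All 7 mitotic kinase and checkpoint members were lower in PO. Bub1b, the checkpoint kinase BUBR1 and the gene of this role with the highest mean CPM, was at 3.27, 5.74 and 4.30 CPM in PO and 28.5, 54.7 and 18.8 CPM in TO, a log2 fold change of -2.94 ± 0.45 (edgeR adjusted p = 1.12e-04). The log2 fold changes of Aurkb and Birc5, both subunits of the chromosomal passenger complex, were -5.28 and -5.14. Those of Bub1, Ttk, Plk1 and Aurka were -4.44, -4.52, -3.69 and -2.14. Ttk had 16 counts in the 3 PO libraries together and was at 0 in PCWO replicate 3. In mitotic exit, Cdc20 was at 5.74, 8.31 and 6.99 CPM in PO and 30.2, 39.1 and 17.1 CPM in TO and fell by 2.04 (SE 0.44). Ube2c, the ubiquitin-conjugating enzyme of the same step, fell by 5.98 (SE 0.75).

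Spindle genes held the widest range. Tpx2 (Ensembl ENSMUSG00000027469, chromosome 2, 152847964 to 152895321, plus strand), which activates Aurora A on spindle microtubules, was at 0.334, 0.752 and 0.610 CPM in PO and 20.8, 29.6 and 15.5 CPM in TO. The difference was 38.9-fold in mean CPM and -5.27 ± 0.46 on the log2 scale, with the smallest adjusted p of the 41 (edgeR, 1.41e-07). Kif23, a motor of the central spindle and the gene of this role with the highest mean CPM, had 19.9, 13.2 and 14.7 CPM in PO and 41.8, 47.5 and 34.1 CPM in TO. Its log2 fold change of -1.37 ± 0.18 was the smallest of the mitotic members (edgeR adjusted p = 2.64e-05). Nusap1 and Kif11, a microtubule-bundling protein and the motor that separates spindle poles, fell by 5.20 and 4.72. Cenpe and Kif20a, both kinesins, fell by 3.01 and 2.99. Kif20a overlaps Cdc23 on the opposite strand over 1271 bases, Cdc20 overlaps Elovl1 over 53 and Nusap1 overlaps Oip5 over 172. Top2a (Ensembl ENSMUSG00000020914, chromosome 11, 98992943 to 99024189, minus strand), the topoisomerase that untangles replicated chromosomes, was at 4.94, 4.21 and 4.99 CPM in PO and 76.2, 118 and 46.8 CPM in TO, a log2 fold change of -4.09 ± 0.38 (edgeR adjusted p = 3.16e-07). Mki67, the Ki-67 antigen of dividing cells, fell by 4.15 (SE 0.65).

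In W131AOTII cells the 10 members with the smallest adjusted p in PWO against thymic W131A cells were Kif23, Tpx2, Bub1, Nusap1, Rrm2, Top2a, Kif11, Tyms, Cdk1 and Cdc6. Their log2 fold changes were -1.84, -3.79, -4.50, -3.73, -3.39, -3.00, -3.73, -2.20, -3.59 and -4.10. Markers of other cells also moved with the tissue. The summed level of 14 immature thymocyte genes was 2469.8 to 2765 CPM in PO and 4306 to 4914 CPM in TO, with Satb1 and Ccr9 highest in CPM. Of the 14, 8 were lower and 2 higher in PO. Themis, which acts in thymic selection, was one of the higher genes, at 321, 262 and 290.2 CPM in PO and 181, 178 and 177 CPM in TO. Rag1 was at 0 in 2 of the PO libraries and at 1.84, 2.59 and 0.527 CPM in TO. The 12 B cell genes, led by Ighm and Igkc, summed to 1899 to 2203 CPM in PO and 657 to 947 CPM in TO. Of the immature thymocyte genes, 1 to 3 were at 0 in each PO library and none in TO. The part of these markers in the tissue difference was not tested.

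**Figure D4:**
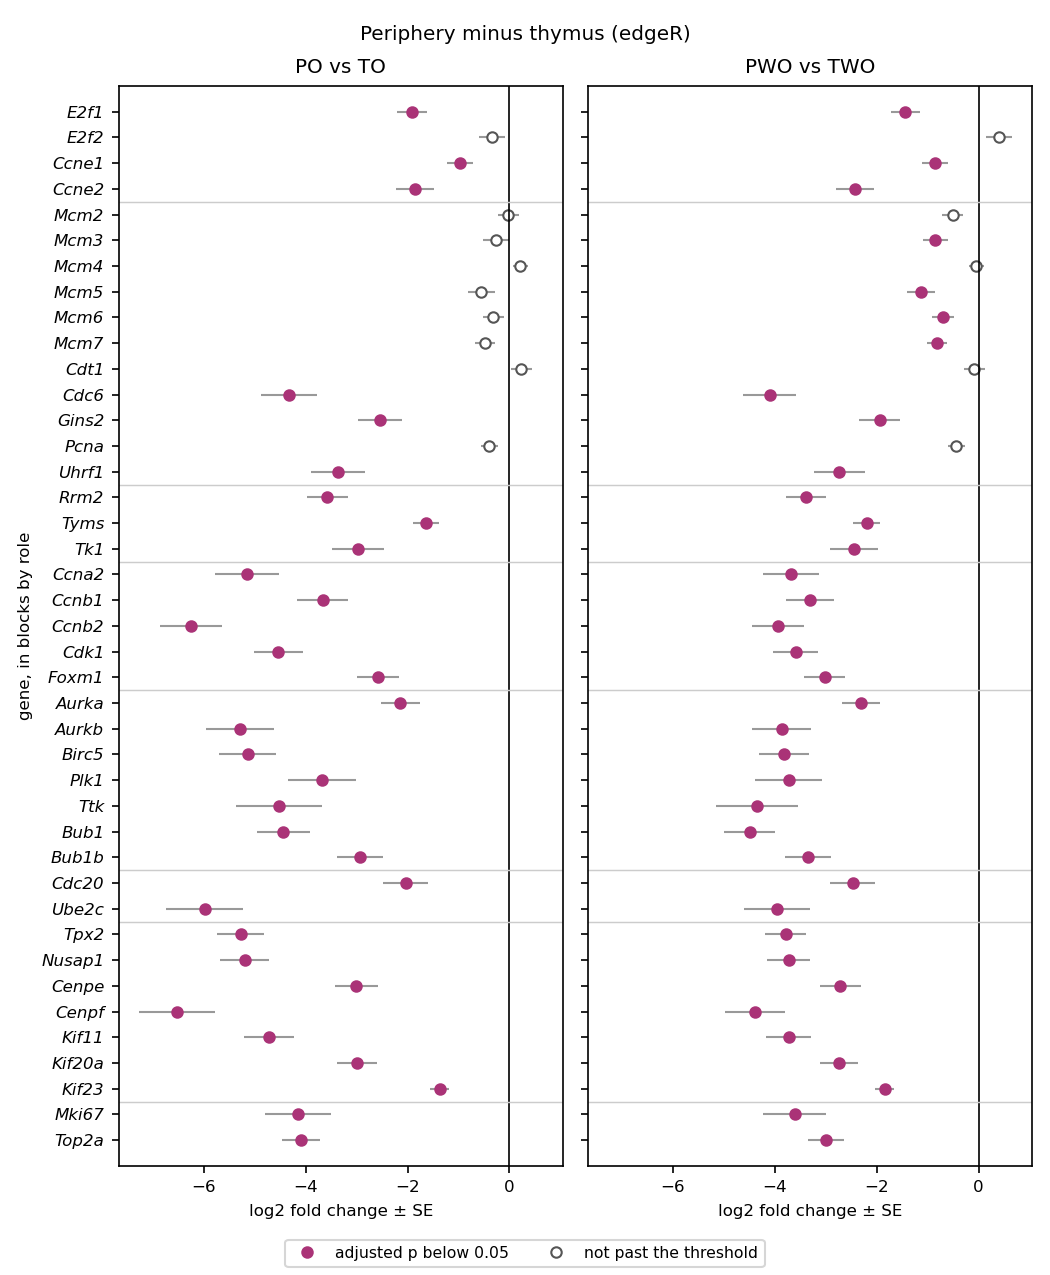
Log2 fold change ± SE (x axis, edgeR) of the 41 genes (y axis, in blocks by role) in periphery against thymus for OTII (left) and W131AOTII (right), with filled points past adjusted p of 0.05. All 23 mitotic genes lie left of 0 and are filled in both panels, while Mcm2, Mcm4, Cdt1, Pcna and E2f2 are open in both.

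The effect of W131A on naive peripheral cells was asked with PWO against PO. Of the 41 genes, 5 were higher in PWO and none was lower, where 1.68% of all genes were higher, 0.25% lower and 1.93% called in either direction. The 5 were Tpx2, Top2a, Ccnb2, Nusap1 and Kif11, all mitotic members of the spindle, the chromosomes or the cyclins. The median log2 fold change was 1.25 over the 23 mitotic members, 0.32 over the 18 replication members and 0.00 over all genes, and 39 of 41 values were positive, against 49.7% of all genes. In 18 of 41 genes the 3 PWO libraries lay above the 3 PO libraries, compared with 10.7% of all genes tested, and in none did they lie below, as in 8.54% of all genes. Each of the 5 was also lower in PWO than in thymic W131A cells.

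Tpx2 had 2.72, 3.15 and 2.07 CPM in PWO and 0.334, 0.752 and 0.610 CPM in PO. The 3 PWO libraries were close together and clear of PO, and the log2 fold change was 2.22 ± 0.45 (edgeR adjusted p = 0.0101). Top2a had 13.2, 20.1 and 12.1 CPM in PWO and 4.94, 4.21 and 4.99 CPM in PO, a log2 fold change of 1.68 ± 0.36 (edgeR adjusted p = 0.0134). Ccnb2 was less even in PWO, at 0.850, 4.18 and 1.37 CPM, with replicate 2 well above the others, and its log2 fold change was 2.7 ± 0.62 (edgeR adjusted p = 0.0220). Nusap1 at 1.28, 3.34 and 1.18 CPM and Kif11 at 2.66, 4.56 and 1.75 CPM in PWO gave 1.86 ± 0.47 and 1.89 ± 0.48, just past the threshold at adjusted p of 0.0472 and 0.0481 (edgeR). E2f2 lay just outside it, at 41, 42.3 and 50.9 CPM in PWO, with 1.0 ± 0.26 (edgeR adjusted p = 0.0519), as did E2f1 with 1.05 ± 0.29 (edgeR adjusted p = 0.0765). The libraries of both genes did not overlap between the groups. Mcm2 to Mcm7 had log2 fold changes between -0.03 and 0.23, none past the threshold.

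PWO replicate 2 was the highest of its group in 30 of 41 genes, compared with 32.7% of all genes. Igkc, an antibody light chain, was at 54.1, 486 and 42.4 CPM in PWO, highest in replicate 2, and the 12 B cell genes summed to 1966, 3284 and 2136 CPM. The 12 myeloid and dendritic genes, led by Cst3 and Lyz2, summed to 76.5, 191 and 98.4 CPM. The 5 early thymic progenitor genes, led by Kit and Mef2c, summed to 17.1, 55.1 and 8.12 CPM. Kit alone of the 5 was highest in replicate 1, at 4.19, 2.35 and 0.955 CPM. The others were highest in replicate 2, with Mef2c at 9.07, 31.6 and 3.76 CPM, so the peak of the sum was not that of Kit. No B cell or progenitor gene was at 0 in PWO, and 0 to 5 of the myeloid genes were. Without the 3 libraries known to stand apart, 2 of the 41 were called, beside 212 of 15566 genes. Without PWO replicate 2, only Tpx2 of the 41 remained past the threshold, and it was also the only one without PO replicate 2 or PO replicate 3. Over all genes, 190 of 15687 were called without PWO replicate 2, and 154 of 15758 and 147 of 15774 without PO replicates 2 and 3. Without PO replicate 1, 0 of the 41 were called, beside 152 of 15765 genes. The NK and innate-like list of 10 genes, led by Trdc and Prf1, was higher in all PWO libraries, at 515 to 686 CPM against 228 to 259.9 CPM in PO, with 3 of its genes called. The activated or effector T cell list, at up to 281 CPM in PWO against 179.8 to 204 CPM in PO, was higher in all PWO libraries, and 2 of its 8 genes were called higher. The part of these markers in the differences between PWO and PO was not tested.

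Loss of Cbl-b in OTII cells (PCO against PO) was accompanied by higher levels of 8 of the 41 genes and lower levels of none, beside 5.22% of all genes higher, 2.99% lower and 8.21% called in either direction. All 8 were mitotic members, namely Ccnb2, Tpx2, Birc5, Nusap1, Kif11, Top2a, Cdk1 and Aurkb. The median log2 fold change was 1.5 for mitotic members, -0.06 for replication members and 0.04 for all genes. The libraries of 22 genes lay wholly above PO and those of 3 genes wholly below it, compared with 14.9% and 15.3% of all genes. The 3 were Cdt1, Mcm2 and Mcm3. PCO, PWO and PCWO were all compared with the same PO libraries, so their differences share those samples, and their values are given side by side without any test of likeness.

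Ccnb2 reached 4.20, 4.36 and 3.72 CPM in PCO, a tight group with no overlap with PO. Its log2 fold change was 3.65 ± 0.61 (edgeR adjusted p = 0.00190), and it was called in 16 of 16 alternative settings. Tpx2 at 2.60, 3.46 and 2.90 CPM gave 2.40 ± 0.46 (edgeR adjusted p = 0.00576) and was likewise called in 16 of 16. Birc5, survivin of the passenger complex, had 3.20, 2.27 and 3.28 CPM in PCO and 0.668, 0.308 and 0.466 CPM in PO, with 2.59 ± 0.55 (edgeR adjusted p = 0.0102). Its partner Aurkb had 2.05, 3.55 and 1.71 CPM in PCO and 0.668, 0.171 and 0.646 CPM in PO, with 2.28 ± 0.67 (edgeR adjusted p = 0.0408). The remaining 4 genes had smaller values. The log2 fold change was 2.04 for Nusap1, 1.97 for Kif11, 1.71 for Cdk1 and 1.32 for Top2a. Ccne2 lay just outside the threshold with 1.23 ± 0.38 (edgeR adjusted p = 0.0501). Mcm2 to Mcm7 ran from -0.41 to -0.03, none past it. The count of 8 fell to 3, 3 and 2 without PO replicates 1, 2 and 3 and to 4 without PCO replicate 2, and it was 6 without the 3 libraries known to stand apart. Calls over all genes fell as well, from 1249 of 15204 to 720 of 15765, 339 of 15758 and 150 of 15774 without PO replicates 1, 2 and 3. They were 427 of 15774 without PCO replicate 2 and 311 of 15566 without the 3 libraries. The myeloid list summed to 128, 192 and 81.0 CPM in PCO against 74.3 to 95.4 CPM in PO, and the B cell list to 1629 to 1996 CPM. Of the 8 activated or effector T cell genes, 4 were higher and none lower, with a median log2 fold change of 1.25, although the list's sum overlapped, at 173 to 218 CPM in PCO. The NK and innate-like list had 1 gene higher and a median of 1.54, and the 10 housekeeping genes had 3 higher and 1 lower. Their part in the difference was not tested.

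With both changes together (PCWO against PO), 6 of the 41 were higher and 2 were lower, beside 3.87% and 3.52% of all genes and 7.39% in either direction. A count of 2 in 41 is near the 3.52% of all genes that were lower. The 6 were the mitotic genes Nusap1, Ccnb2, Kif11 and Top2a and the G1/S genes Ccne2 and E2f2, and the 2 lower ones were Cdt1 and Mcm2. PCWO lay wholly above PO in 20 genes and wholly below it in 6, as in 19.7% and 20% of all genes. Ccnb2 had 1.61, 1.61 and 1.81 CPM in PCWO, between PO and PCO, with a log2 fold change of 2.36 ± 0.63 (edgeR adjusted p = 0.0278). Nusap1 at 2.14, 2.24 and 1.53 CPM gave 1.89 ± 0.47, Kif11 at 3.54, 2.99 and 1.60 CPM gave 1.75 ± 0.48, and Top2a at 13.3, 13.7 and 7.51 CPM gave 1.29 ± 0.36. Ccne2, with 3.66, 2.35 and 1.49 CPM in PCWO and 0.734, 0.821 and 1.15 CPM in PO, rose by 1.48 ± 0.37 (edgeR adjusted p = 0.0220). E2f2 had 42.7, 40.8 and 47.3 CPM in PCWO and rose by 0.97 ± 0.26 (edgeR adjusted p = 0.0288). Mcm2 was at 133, 143 and 137 CPM in PCWO, below every PO library, and fell by 0.73 (SE 0.21, edgeR adjusted p = 0.0408). Cdt1 was at 33.2, 36.4 and 37.7 CPM in PCWO and 53.4, 62.5 and 65.9 CPM in PO, and fell by 0.76 (SE 0.21, edgeR adjusted p = 0.0357). The calls depended on single libraries and on scaling. Leaving out 1 library at a time left 0 calls without PO replicate 3, PCWO replicate 1 or PCWO replicate 2, 1 without PO replicate 1 or 2, and 4 without PCWO replicate 3. Calls over all genes in these fits ran from 341 of 15774 without PO replicate 3 to 887 of 15765 without PO replicate 1. The full fit called 1123 of 15204. Unscaled library sizes put the median of all genes at 0.16 and gave 6 higher and 0 lower members, beside 1172 of 15204 genes called. Corrected for GC content and length, the split was 2 to 3, beside 1303 of 15198 genes called. Of the 8 activated or effector T cell genes, led by Cd69 and Il2ra, 4 were higher and 1 lower in PCWO, and the list summed to 239 to 280.4 CPM against 179.8 to 204 CPM in PO. The NK and innate-like list had 2 genes higher and summed to 413 to 545 CPM against 228 to 259.9 CPM. Of the erythroid and platelet genes 3 of 6 tested were higher, and of the 10 housekeeping genes 1 was higher and 2 were lower. The 12 B cell genes summed to 1538 to 1685 CPM in PCWO against 1899 to 2203 CPM in PO. Their median log2 fold change was -1.52, with 1 gene called lower and 0 higher. The part of these lists in the difference of PCWO from PO was not tested.

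**Figure D5:**
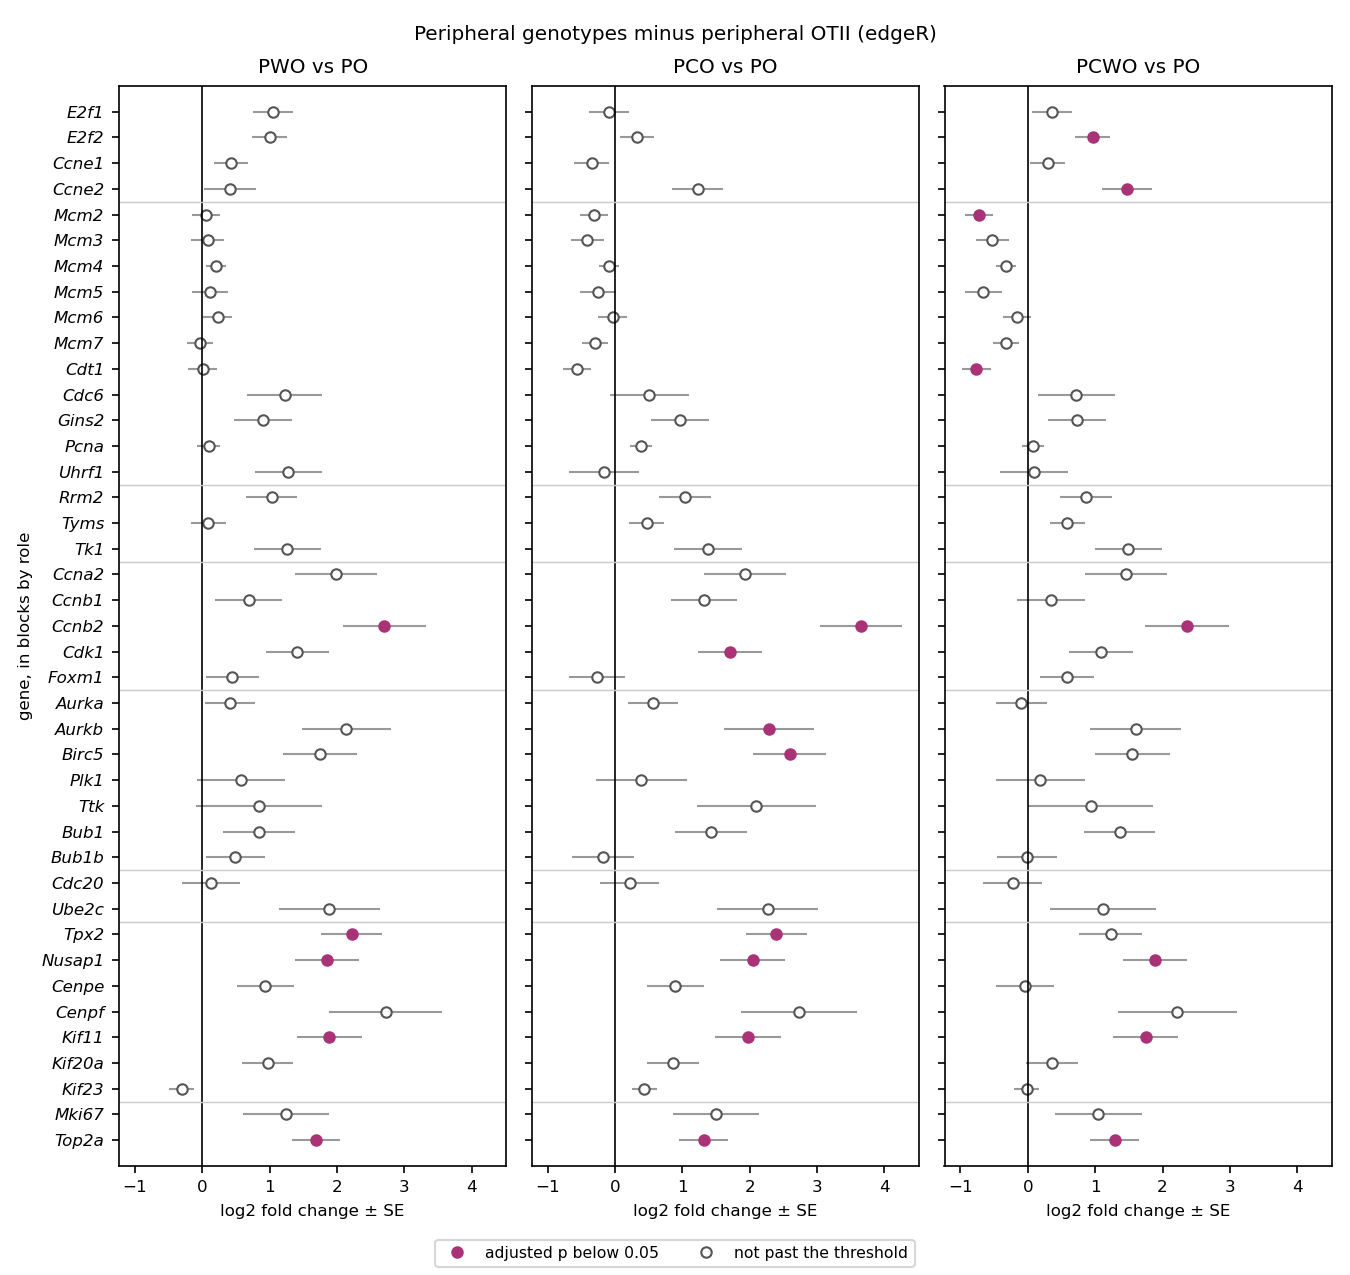
Log2 fold change ± SE (x axis, edgeR) of the 41 genes (y axis, in blocks by role) in PWO, PCO and PCWO, each against PO, with filled points past adjusted p of 0.05. Ccnb2, Nusap1, Kif11 and Top2a are filled in all 3 panels, which share the PO libraries, and Mcm2 and Cdt1 are filled to the left of 0 in the PCWO panel.

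The member of each role with the highest mean CPM, which is not a level per length, gives the peripheral levels not yet listed. E2f2 was at 24.0, 32.8 and 27.1 CPM in PCO, with replicate 1 within the PO range of 16.8 to 25.3 CPM and the others above it, while PWO and PCWO were above 40 CPM. Mcm2 was at 181, 192 and 176 CPM in PCO, between PO and PCWO. Rrm2 was at 6.09, 13.0 and 8.53 CPM in PWO, 9.80, 7.77 and 10.1 CPM in PCO and 9.02, 8.55 and 6.88 CPM in PCWO. Ccna2 was at 0.964, 6.30 and 2.23 CPM in PWO, 2.60, 2.32 and 4.10 CPM in PCO and 1.93, 2.58 and 2.05 CPM in PCWO, each group above PO and the spread widest in PWO. Bub1b overlapped PO, at 4.25, 8.20 and 6.27 CPM in PWO, 3.65, 3.68 and 4.40 CPM in PCO and 3.57, 3.81 and 5.80 CPM in PCWO. Cdc20 was at 5.27, 11.4 and 6.40 CPM in PWO, 7.75, 9.41 and 7.37 CPM in PCO and 6.74, 7.02 and 4.27 CPM in PCWO, which overlap PO. Kif23 was at 13.4, 13.0 and 12.4 CPM in PWO, 17.1, 25.9 and 21.7 CPM in PCO and 16.6, 14.0 and 16.7 CPM in PCWO, with the highest values in PCO. Top2a was at 9.55, 12.5 and 13.0 CPM in PCO, above each PO library.

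Cbl-b loss in W131AOTII cells (PCWO against PWO) addressed the return of responsiveness that the study linked to the loss of Cbl-b. In edgeR none of the 41 was higher and 3 were lower, beside 3.18% of all genes higher, 6.08% lower and 9.25% called in either direction. A count of 3 in 41 is near the share of all genes that were lower. DESeq2 called 4 lower and 1 higher, Ccne2 (1.05, adjusted p = 0.0415). The 3 were all origin-licensing genes. Mcm2, with 212, 239 and 259 CPM in PWO and 133, 143 and 137 CPM in PCWO, fell by 0.78 (SE 0.21, edgeR adjusted p = 0.0286). Mcm4, with 221, 209 and 260.5 CPM in PWO and 171, 156 and 153 CPM in PCWO, fell by 0.52 (SE 0.15, edgeR adjusted p = 0.0343). Cdt1, with 52.3, 70.8 and 59.7 CPM in PWO, fell by 0.77 (SE 0.21, edgeR adjusted p = 0.0320). No overlap was seen between PWO and PCWO in any of the 3. Over the 41, PCWO lay wholly below PWO in 13 genes and wholly above it in 2, as in 20.3% and 19.6% of all genes. The other helicase subunits had log2 fold changes of -0.77 (Mcm5), -0.61 (Mcm3), -0.39 (Mcm6) and -0.29 (Mcm7), none past the threshold in edgeR. With edgeR on only the groups compared, all 4 were called lower, in a fit that called 10 of the 41 and 3296 of 13946 genes. DESeq2 called Mcm5 (-0.79, adjusted p = 0.0359), and it called 2260 of 15337 genes over the whole table. Mitotic members had a median of -0.36, with all genes at 0.03, and none was called. No member was called without the 3 libraries known to stand apart, or without PWO replicate 2, PWO replicate 3, PCWO replicate 1 or PCWO replicate 2. Calls over all genes in those fits ran from 124 of 15697 without PCWO replicate 1 to 550 of 15781 without PCWO replicate 2. The full fit called 1407 of 15204. Without PCWO replicate 3 the only call among the 41 was Ccne2, higher by 1.32, beside 689 of 15754 genes. Unscaled library sizes put the median of all genes at 0.18, and 1 member was higher (Ccne2) and 1 lower (Mcm2), beside 1491 of 15204 genes called. Markers of other cells were lower in the same comparison. Of 12 B cell genes 11 were lower, with a median log2 fold change of -2.81, and the list summed to 1538 to 1685 CPM in PCWO against 1966 to 3284 CPM in PWO. Also lower were 3 of 10 myeloid and dendritic genes tested, 2 of 5 early thymic progenitor genes and 3 of 10 housekeeping genes, of which 1 was higher. Kit of the progenitor list was not among the lower genes, at 4.28, 5.30 and 2.95 CPM in PCWO and 4.19, 2.35 and 0.955 CPM in PWO. The part of these markers in the lower Mcm2, Mcm4 and Cdt1 was not tested.

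W131A in cells that lack Cbl-b (PCWO against PCO) gave 0 calls among the 41 in edgeR and 0 in DESeq2, beside 1.89% of all genes in edgeR (0.802% higher, 1.09% lower), and 7 members had an unadjusted p below 0.05, as did 17.1% of all genes. The mitotic members had a median log2 fold change of -0.50, against -0.02 for all genes, and 11 of 23 lay wholly below PCO. Over the 41, 13 lay wholly below and 4 wholly above, as did 10% and 11.1% of all genes. The direction for Tpx2 and Ccnb2 was downward, -1.17 ± 0.41 and -1.29 ± 0.50, at edgeR adjusted p of 0.156 and 0.190.

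The interaction asks whether the W131A difference depended on Cbl-b, as (PCWO - PCO) - (PWO - PO). Of the 41, 2 passed, Tpx2 and Ccnb2, both negative, beside 0.592% of all genes lower, 0.0395% higher and 0.631% in either direction. For Tpx2, the W131A log2 fold change was 2.22 with Cbl-b and -1.17 without it, and the interaction was -3.39 ± 0.61 (edgeR adjusted p = 0.00861). It was called in 22 of 22 alternative settings. For Ccnb2 the corresponding values were 2.7 and -1.29, and the interaction was -3.99 ± 0.79 (edgeR adjusted p = 0.0187). Ccnb2 was called in 14 of 22 settings and lost the call without any 1 of PO replicates 1, 2 or 3, PWO replicate 2, PCO replicate 2 or PCWO replicate 1. Without the 3 libraries known to stand apart, Tpx2 was the only call. Unscaled library sizes put the median of all genes at 0.12, and both genes were still called. The 23 mitotic members had a median interaction of -1.88, the 18 replication members -0.42 and all genes -0.02. Birc5, Top2a, Kif11, Aurkb, Nusap1 and Cdk1 had values of -2.79, -1.71, -2.11, -2.82, -2.01 and -2.04, none past the threshold in edgeR. DESeq2 called Birc5 (adjusted p = 0.00714), Top2a (adjusted p = 0.0327) and Kif11 (adjusted p = 0.0459), and edgeR on only the 4 groups compared called Top2a (adjusted p = 0.0275). Over all genes, DESeq2 called 227 of 16489 and edgeR on those groups 116 of 14586. The mean levels of Tpx2 show the pattern, with 0.565 ± 0.213 CPM in PO, 2.65 ± 0.544 CPM in PWO, 2.99 ± 0.433 CPM in PCO and 1.33 ± 0.272 CPM in PCWO (± SD, n = 3). Tpx2 was higher than PO in PWO and in PCO, and PCWO lay between. In the same interaction the median was -1.99 for the B cell list, -2.91 for the myeloid and dendritic list, with 1 gene called lower, and -1.46 for the NK and innate-like list. The part of these cells in the interaction was not tested.

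W131A in the thymus (thymic W131A cells against TO) gave 0 calls among the 41 in edgeR and 0 in DESeq2, beside 2.77% of all genes in edgeR (1.73% higher, 1.04% lower), while 13 had an unadjusted p below 0.05, as did 16.4% of all genes. The log2 fold change was positive in 40 of 41 genes, with a median of 0.59 against 0.01 for all genes, of which 51.5% were positive. In 1 gene thymic W131A cells lay wholly above TO and in none wholly below, compared with 8.57% and 8.4% of all genes. The thymic W131A libraries were far apart. Mcm2 was at 469, 214 and 329.8 CPM in thymic W131A cells, with replicate 1 above and replicate 2 within the TO range of 172 to 301 CPM. Top2a was at 158, 58.8 and 147 CPM, Rrm2 at 154, 44.6 and 90.5 CPM and Ccna2 at 67.0, 15.4 and 39.5 CPM, in the same order of replicates. E2f2 was at 47.0, 19.6 and 35.6 CPM, Bub1b at 102, 21.7 and 67.5 CPM, Cdc20 at 79.7, 15.1 and 33.6 CPM and Kif23 at 50.2, 39.1 and 49.6 CPM. Kif23 was the most even of these. Thymic W131A replicate 1 was the highest of the 6 thymic libraries in 39 of 41 genes, compared with 21.7% of all genes. Its ratio to thymic W131A replicate 2 had a median of 3.94 over mitotic members, 2.36 over replication members and 1.03 over all genes. TO replicate 3 was the lowest thymic library in 24 of 41 genes, compared with 13.7% of all genes.

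The thymic counts of calls depended on single libraries. Without thymic W131A replicate 2, 8 of the 41 were higher in thymic W131A cells, beside 301 of 15728 genes. They were Mcm2, Mcm3, Mcm4, Mcm5, Mcm6, Foxm1, Bub1b and Tpx2. Their log2 fold changes ran from 0.61 (Mcm4) to 1.30 (Bub1b). Without TO replicate 2, Mcm3, Mcm5 and Mcm6 were higher, by 0.97, 1.01 and 0.83, beside 319 of 15732 genes higher. Of other cells, the NK and innate-like list summed to 697, 929 and 383 CPM in TO and 1203, 466 and 869.9 CPM in thymic W131A cells, highest in thymic W131A replicate 1. The erythroid and platelet list, led by Hbb-bs and Hbb-bt, summed to 0.802, 0.655 and 0.791 CPM in TO and 4.02, 4.77 and 33.5 CPM in thymic W131A cells, highest in replicate 3. The immature thymocyte list summed to 4306, 4914 and 4459 CPM in TO and 3748, 3767 and 4677 CPM in thymic W131A cells, and the early thymic progenitor list to 13.4, 27.7 and 10.3 CPM and 28.2, 16.1 and 40.1 CPM. Their part in the spread among thymic libraries was not tested. The difference of the W131A effect between periphery and thymus, (PWO - PO) - (thymic W131A - TO), gave 0 of 41 calls in edgeR and 0 in DESeq2, beside 0.381% of all genes in edgeR (0.296% higher, 0.0855% lower). Of the members, 6 had an unadjusted p below 0.05, as did 9.52% of all genes, and Ccnb2 had the smallest, with 2.31 ± 0.76 (edgeR adjusted p = 0.289).

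Other genes of the pathway were read from lists that do not include the 41. Their counts stand beside the shares of all genes given with each comparison, such as 10.6% lower and 7.75% higher in PO against TO, 11.2% and 8.07% in PWO against thymic W131A cells and 6.08% and 3.18% in PCWO against PWO. Of 50 other mitotic genes, 44 were lower and 1 higher in PO against TO, and 45 and 1 in PWO against thymic W131A cells. Those with the smallest adjusted p in PO were Cdca5, a cohesin protector, Stmn1, a microtubule destabiliser, Pbk, a mitotic kinase, and Knl1, a kinetochore scaffold, with log2 fold changes of -4.07, -2.44, -6.66 and -4.10. In PCO against PO, 12 of the 50 were higher and none lower, led by Knl1 (2.41), Nek2 (3.76), Pimreg (3.59) and Pbk (3.29). In PWO against PO, 2 were higher, Nek2 (3.71), a centrosome kinase, and Racgap1 (1.38), a central spindle protein. In PCWO against PO, 5 were higher, among them Smc4 (1.05), a condensin subunit, and Pbk (3.20), and 1 was lower, Stmn1 (-0.97). Stmn1 was also the 1 gene lower in PCWO against PCO (-1.17), and Smc4 the 1 gene higher in PCWO against PWO (1.07). Nek2 also had an interaction past the threshold, -5.35. Nek2 was at 0.10, 0.137 and 0.179 CPM in PO, 0.538, 4.21 and 0.860 in PWO, 1.90, 2.32 and 1.57 in PCO and 0.615, 0.784 and 0.452 CPM in PCWO, highest in PWO replicate 2.

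Of 50 other replication genes, 17 were lower in PO against TO and 29 in PWO against thymic W131A cells, with none higher. Dtl, an adaptor that marks Cdt1 for destruction, had -4.20, and Chaf1a and Chaf1b, which assemble chromatin behind the fork, had -3.24 and -0.90 in PO against TO. In PCO against PO, 5 were higher, among them Rpa3 (1.20), Gmnn (1.08), Orc6 (0.77) and Orc4 (0.73). In PCWO against PWO, the origin genes Cdc7 (0.81), Orc4 (0.80), Orc6 (0.60) and Orc2 (0.43) were higher, and Dnmt1 was lower (-0.72). In the same comparison Mcm2, Mcm4 and Cdt1 were lower. In PCWO against PO, 6 were higher, among them Dtl (2.14) and Hells (0.89), and 1 lower, Dnmt1 (-0.80), the maintenance DNA methyltransferase that works with Uhrf1. In thymic W131A cells against TO, Hells (0.94) and Wdhd1 (0.70) were higher. Of 12 G1 cyclins and kinases, 7 were lower in PO against TO, among them Cdk6 (-2.11), Cks1b (-2.42), Ccnd2 (-0.81) and Cdk2 (-0.73). The D-type cyclins Ccnd2 (-0.70) and Ccnd3 (-0.66) were lower in PCWO against PWO.

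Of 13 DREAM subunits and E2F partners or repressors, 5 were lower in PO against TO and 6 in PWO against thymic W131A cells, with none higher. The repressors E2f7 and E2f8, themselves made in S phase, had log2 fold changes of -3.53 and -4.21 in PO against TO, and E2f3 had -2.60. E2f4, which binds in the DREAM complex, was the 1 gene of this list called in PCWO against PWO (-0.63), and E2f6 the 1 called in thymic W131A cells against TO (0.55). Of 8 CDK inhibitors and pocket proteins tested, Cdkn2c was lower in PO against TO (-2.03) and in PWO against thymic W131A cells (-2.29), where Cdkn2d was higher (0.58). A count of 1 in 8 is near the 10.6% and 11.2% of all genes that were lower. Of 17 genes of replication stress and recombination, 8 were lower and 2 higher in PO against TO. Rad54l (-2.34) and the checkpoint kinase Chek1 (-1.81) were lower, and Fanci (0.98) and Atm (0.92) were higher. In PWO against thymic W131A cells, 9 of the 17 were lower, with the smallest adjusted p in Chek1 (-3.03). In thymic W131A cells against TO the 1 gene called was Fanci (1.16), and Trp53 was lower in PCWO against PWO (-0.56) and against PO (-0.54).

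Of 14 genes tested that are known to keep T cells quiescent, 2 were higher and 3 lower in PO against TO, where 7.75% and 10.6% of all genes were called, with Foxo1 (0.72) and Il7r (0.61) higher and Tob1 (-0.74), Bcl2 (-0.66) and Btg2 (-0.33) lower. In PWO against thymic W131A cells, 4 were higher, led by Klf2 (1.26), a factor of quiescence and of exit from the thymus, and Btg2 was lower (-0.69). Klf2 was lower in thymic W131A cells against TO (-1.11), the 1 gene of the list called there, and its W131A effect differed between periphery and thymus (1.34). In PCO against PO, Slfn2 was higher (0.60) and Foxo1 (-0.63) and Tsc2 (-0.72) were lower. Bcl2, a survival factor, was higher in PCWO than in PO (1.31), PWO (0.76) and PCO (1.10). In PWO against PO, edgeR called 0 genes of the quiescence, inhibitor, DREAM, G1 cyclin, replication and replication stress lists.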

How the data were processed

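Total RNA of 18 sorted CD4 T cell samples was sequenced from 1 end with a read length of 50 bases, per the labels' protocols. The authors deposited 1 table of raw counts per Ensembl gene, with every column mapped to a sample by its name and 0 columns without one. The submitters' processing notes name STAR 2.7.2, GRCm38 and DESeq2. The counter, its annotation and strand setting, and the DESeq2 version were not given in the sources used here. Symbols, lengths and coordinates came from GENCODE M21, on GRCm38.

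Counts were filtered with edgeR's filterByExpr, scaled by TMM and fitted over all 6 groups with edgeR 4.0.16 (robust quasi-likelihood, 12 residual degrees of freedom) in R 4.3.3. From this fit, 10 comparisons were tested, with Benjamini-Hochberg adjustment over 15204 genes and a threshold of 0.05. The SE is the log2 fold change divided by the square root of F. CPM were counts-per-million of the TMM-adjusted library size and RPKM the same per kilobase of exon. Totals of 19708218 to 36218772 counts limit precision most for members with few counts, for which exact Poisson intervals cover counting error only. The scripts were tested on simulated data. Alternatives were other scalings, no filter, DESeq2 1.42.0, only the groups compared, GC and length offsets, a replicate block, and fewer libraries.

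All called members were named with their values up to 10 per comparison, otherwise the 10 with the smallest adjusted p, together with the member of each role with the highest mean CPM and up to 4 genes of each related list, some of which are not reported here. The members and lists were chosen with earlier results of these data known. Replicate numbers were given to all groups by the labels. Deviations of samples with the same number correlated between -0.304 and 0.205 in 45 pairs, of which 6 were over 0.1. Those of samples with different numbers correlated between -0.281 and 0.327 in 90 pairs, of which 16 were over 0.1. The numbers were therefore not taken to pair samples. The pairs span all groups, so they cannot decide whether peripheral and thymic samples of a genotype share mice.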

Additional observations from a re-analysis of the deposited data

Results flagged for a closer look

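The W131A difference in Tpx2 was positive with Cbl-b and negative without it. The interaction, which asks whether these 2 differences are equal, passed the threshold. The negative difference (PCWO against PCO) was not called, so a change of sign was not established. The interaction was -3.39 on the log2 scale (edgeR's quasi-likelihood test, Benjamini-Hochberg adjusted p = 0.00861). The 3 PWO libraries lay above the 3 PO libraries, as in 10.7% of all genes. The 3 PCWO libraries lay below the 3 PCO libraries, as in 10% of all genes. Ccnb2 had an interaction of -3.99 (edgeR adjusted p = 0.0187), a call lost without PWO replicate 2 (-3.04), and PWO replicates 1 and 3 were below all PCWO libraries. Both genes are mitotic members with few counts in PO, 49 for Tpx2 and 28 for Ccnb2 over 3 libraries.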

How the results depend on the processing

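Among the genes named with a call, no direction reversed in any alternative. Of 748 values for them under alternatives, 592 kept their call and 156 lost it. The counts of members called in PO against TO and PWO against thymic W131A cells stayed within 1.5 times in every alternative run. Elsewhere the count of members called depended on the setting, and the cause was not tested. Calls over all genes moved with the setting too, and stand beside the counts where given. Without the filter on low counts the count of members was 19 in PWO against PO, 20 in PCO against PO, 8 in PCWO against PWO, 5 in PCWO against PCO, 21 in PCWO against PO, 11 in thymic W131A cells against TO, 17 in the interaction with Cbl-b and 7 in the interaction with tissue. In the same order, 772, 1907, 2243, 1180, 1816, 821, 832 and 365 of 29797 genes were called. With only the groups compared in the fit the count of members was 14 in PCO against PO, 10 in PCWO against PWO, 1 in PCWO against PCO and 22 in PCWO against PO. Over all genes the calls were 1026 of 13638, 3296 of 13946, 271 of 13760 and 3878 of 13835 in the same order. The DESeq2 test gave 9 in PWO against PO, 16 in PCO against PO, 5 in PCWO against PWO and 5 in the interaction with Cbl-b. It called 473 of 15912, 2067 of 14186, 2260 of 15337 and 227 of 16489 genes in these comparisons. Offsets for GC content and length gave 5 in PCWO against PO, beside 1303 of 15198 genes. With them Cdt1 was higher in PO than in TO (0.52) and E2f2 higher in PWO than in thymic W131A cells (0.63). The replicate block gave 3 in PWO against PO, beside 262 of 15204 genes, and moved no other count of members by over 1.5 times. In PCWO against PO, however, it left 6 higher and 0 lower, beside 993 of 15204 genes called. The replicate block with those offsets gave 2 in PWO against PO, 3 in PCO against PO, 5 in PCWO against PO and 1 in the interaction with Cbl-b. There 319, 623, 1265 and 110 of 15198 genes were called. Without the 3 libraries known to stand apart the count of members was 2 in PWO against PO, 0 in PCWO against PWO and 1 in the interaction with Cbl-b. Over all genes 212, 253 and 75 of 15566 were called. Leaving out both PWO replicate 2 and thymic W131A replicate 1, an alternative chosen after seeing the data, gave 3 in PWO against PO and 14 in PCO against PO. The calls over all genes were 221 and 1531 of 15642. Leaving out 1 library at a time gave 0 to 5 in PWO against PO, 2 to 7 in PCO against PO, 0 to 3 in PCWO against PWO, 0 to 4 in PCWO against PO, 0 to 8 in thymic W131A cells against TO and 1 to 3 in the interaction with Cbl-b. It gave 0 to 0 in PCWO against PCO and in the interaction with tissue. Over all genes, those fits called 147 to 315 in PWO against PO, 150 to 1586 in PCO against PO and 124 to 1411 in PCWO against PWO. They called 341 to 887 in PCWO against PO, 177 to 532 in thymic W131A cells against TO and 49 to 169 in the interaction with Cbl-b. With 3 libraries per group and few counts for mitotic members in PO, small differences in those members may have been missed, and power was not tested.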
